A study of Mus musculus with 12 samples.

Results

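A set of 10 gene symbols was followed across bone marrow-derived macrophages (BMDMs): the immunoglobulin genes Igkc, Ighm, Igkv3-4, Igkv3-12 and Igkv12-44 and the B cell genes Cd79a, Cd79b, Jchain, Cd22 and Pax5. They were taken by name from the 38739 symbols listed, and all 10 were found. The list was chosen with the difference between untreated genotypes already known, so every contrast that uses untreated samples is given as a description with no test.

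RNA was sequenced from 12 samples, 3 in each of 4 groups: wild-type (WT) untreated (UT), WT with lipopolysaccharide (LPS), cGAS-/- UT and cGAS-/- with LPS. cGAS senses cytosolic double-stranded DNA. All mice were male, 8 weeks old and on the C57BL/6J background. WT animals were purchased and cGAS-/- animals, which lack the gene in every cell, came from another laboratory. LPS is a component of the Gram-negative cell wall. The sample labels give it as 100 ng/mL for 1 h, and the methods give 150 ng/mL for 24 h. The labels also name neutrophils in the extraction step. A figure legend describes each group's 3 samples as technical replication. The p-values thus measure the spread between these samples and need not hold between mice, and a difference between the starting cultures and one between the genotypes cannot be told apart.

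The macrophage markers Lyz2 and Cd68 were abundant in every sample. Lyz2 (lysozyme) was between 15701 and 33426 TPM (transcript abundance corrected for transcript length) and Cd68 between 153 and 1046 TPM. Cgas itself was between 1.19 and 3.25 TPM in WT samples and between 0.0703 and 0.291 TPM in cGAS-/- samples. One library stood apart. The values of WT LPS replicate 3 summed to 709802, against 447189 to 503156 elsewhere, and the single pseudogene Fth-ps3 held 31.7% of its total. Tests with LPS and ratios of LPS means are therefore given with and without that sample. The read number is unknown, so no counting interval is given.

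A B cell makes its antibody from a heavy and a light chain. In each chain a variable (V) segment, chosen from a large cluster and joined to short segments by recombination, is spliced to a constant gene. Igkc is the only kappa constant gene and Ighm the constant gene of IgM. Cd79a and Cd79b carry the signal of the surface antibody, Cd22 dampens it, Pax5 is the transcription factor that maintains B cell identity, and Jchain joins secreted IgM and IgA into polymers.

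The V segments have close relatives, which bears on how far a value can be tied to 1 segment. The coding bases below were read from the GRCm39 genome with the GENCODE M39 annotation, and capitals mark bases that lie in a 31-base word also found in a transcript of another gene. Igkv3-4 is shown at chr6:70649062-70649361 (plus strand), Igkv3-12 at chr6:70495534-70495833 (plus strand) and Igkv12-44 at chr6:69791615-69791912 (minus strand), each within the second exon of its segment. Igkc is shown at chr6:70703419-70703718 (plus strand), within its single exon, as the gene to which every kappa chain is joined.
Igkv3-4: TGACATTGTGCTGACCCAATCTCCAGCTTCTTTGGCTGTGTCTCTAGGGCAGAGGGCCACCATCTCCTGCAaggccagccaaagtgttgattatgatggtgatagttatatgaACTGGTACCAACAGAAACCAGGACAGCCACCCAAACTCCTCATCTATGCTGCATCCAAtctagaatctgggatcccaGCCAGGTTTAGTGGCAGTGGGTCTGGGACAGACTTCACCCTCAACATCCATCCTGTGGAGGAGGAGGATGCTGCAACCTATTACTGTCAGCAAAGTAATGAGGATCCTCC
Igkv3-12: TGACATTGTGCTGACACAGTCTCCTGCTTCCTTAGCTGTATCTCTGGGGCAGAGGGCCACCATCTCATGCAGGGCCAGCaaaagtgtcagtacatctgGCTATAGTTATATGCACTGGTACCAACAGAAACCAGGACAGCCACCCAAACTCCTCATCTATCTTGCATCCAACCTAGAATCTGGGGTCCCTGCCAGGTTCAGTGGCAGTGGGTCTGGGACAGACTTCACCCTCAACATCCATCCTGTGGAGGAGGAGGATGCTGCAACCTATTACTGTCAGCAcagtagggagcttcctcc
Igkv12-44: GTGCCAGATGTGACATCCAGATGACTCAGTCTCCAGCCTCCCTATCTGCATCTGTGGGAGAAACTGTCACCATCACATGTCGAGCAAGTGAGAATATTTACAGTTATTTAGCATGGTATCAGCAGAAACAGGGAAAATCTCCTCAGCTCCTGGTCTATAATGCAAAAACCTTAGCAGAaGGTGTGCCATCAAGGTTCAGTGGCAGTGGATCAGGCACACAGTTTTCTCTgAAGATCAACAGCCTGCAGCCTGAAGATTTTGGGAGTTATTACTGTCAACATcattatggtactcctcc
Igkc: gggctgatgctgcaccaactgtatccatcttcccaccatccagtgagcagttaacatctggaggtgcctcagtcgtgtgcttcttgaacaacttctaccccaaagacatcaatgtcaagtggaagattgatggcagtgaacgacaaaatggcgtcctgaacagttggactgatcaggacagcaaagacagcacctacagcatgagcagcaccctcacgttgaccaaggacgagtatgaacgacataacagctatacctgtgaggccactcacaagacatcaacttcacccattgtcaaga

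Of the bases shown, 79.7% were shared in Igkv3-4, 87.7% in Igkv3-12, 93.6% in Igkv12-44 and 0 in Igkc. The pair from family 3 were 89.3% identical, with 32 differences in 300 bases. Over whole transcripts, 55.2% of the words of Igkv3-4, 70.5% of those of Igkv3-12 and 55.8% of those of Igkv12-44 recurred elsewhere. The largest partner was Igkv3-3 for the first, Igkv3-7 for the second and Igkv12-41 for the third. A value of a V segment is thus uncertain as to which relative it came from, whereas Igkc, Ighm, Cd79b and Pax5 shared no word with another gene. Cd79a shared 10.3% of its words with Gm32220.

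Igkv3-4 lies 54.1 kilobases from Igkc on chromosome 6, Igkv3-12 lies 208 kilobases away and Igkv12-44 lies 911 kilobases away. All 3 hold the octamer ATGCAAAT, an element known from V promoters, read as ATTTGCAT on their coding strand. It is shown in capitals in 30 bases of GRCm39, at chr6:70648670-70648699 (plus strand) for Igkv3-4, chr6:70495131-70495160 (plus strand) for Igkv3-12 and chr6:69792166-69792195 (minus strand) for Igkv12-44.
Igkv3-4: atactctgctgATTTGCATatgaaataatt
Igkv3-12: ctgctgagctgATTTGCATatggagtcatt
Igkv12-44: accctttgctgATTTGCATgtacccaaagc

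The octamer began 91, 92 and 46 bases before the annotated start of these segments, in that order. Searched on both strands from 250 bases before the start of a gene to 50 bases into it, it was present for 3 of the 10 members, for 64.7% of 343 V segments listed and for 1.68% of 21747 annotated protein-coding genes. The windows of the other 7 members did not contain these letters.

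Igkc had the highest listed value of the members in each UT WT sample. It was at 62.8, 85.3 and 97.0 TPM there, at 36.0, 36.1 and 27.2 TPM in WT with LPS, at 6.51, 10.1 and 3.33 TPM in UT cGAS-/- and at 6.68, 1.79 and 3.20 TPM in cGAS-/- with LPS. The 6 WT samples were above all 6 cGAS-/- samples. The means were 81.7 ± 17.4 (SD, n = 3) in UT WT and 6.65 ± 3.38 (SD, n = 3) in UT cGAS-/- samples, a ratio of 12.3. With LPS, the means were 33.1 ± 5.14 (SD, n = 3) and 3.89 ± 2.52 (SD, n = 3), a ratio of 8.51, and of 9.27 without WT LPS replicate 3. Replicate 1 was the highest of the cGAS-/- LPS samples, and without it the ratio would also be larger. In bulk RNA, fewer cells of a type and less RNA per cell cannot be told apart.

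**Figure D1:**
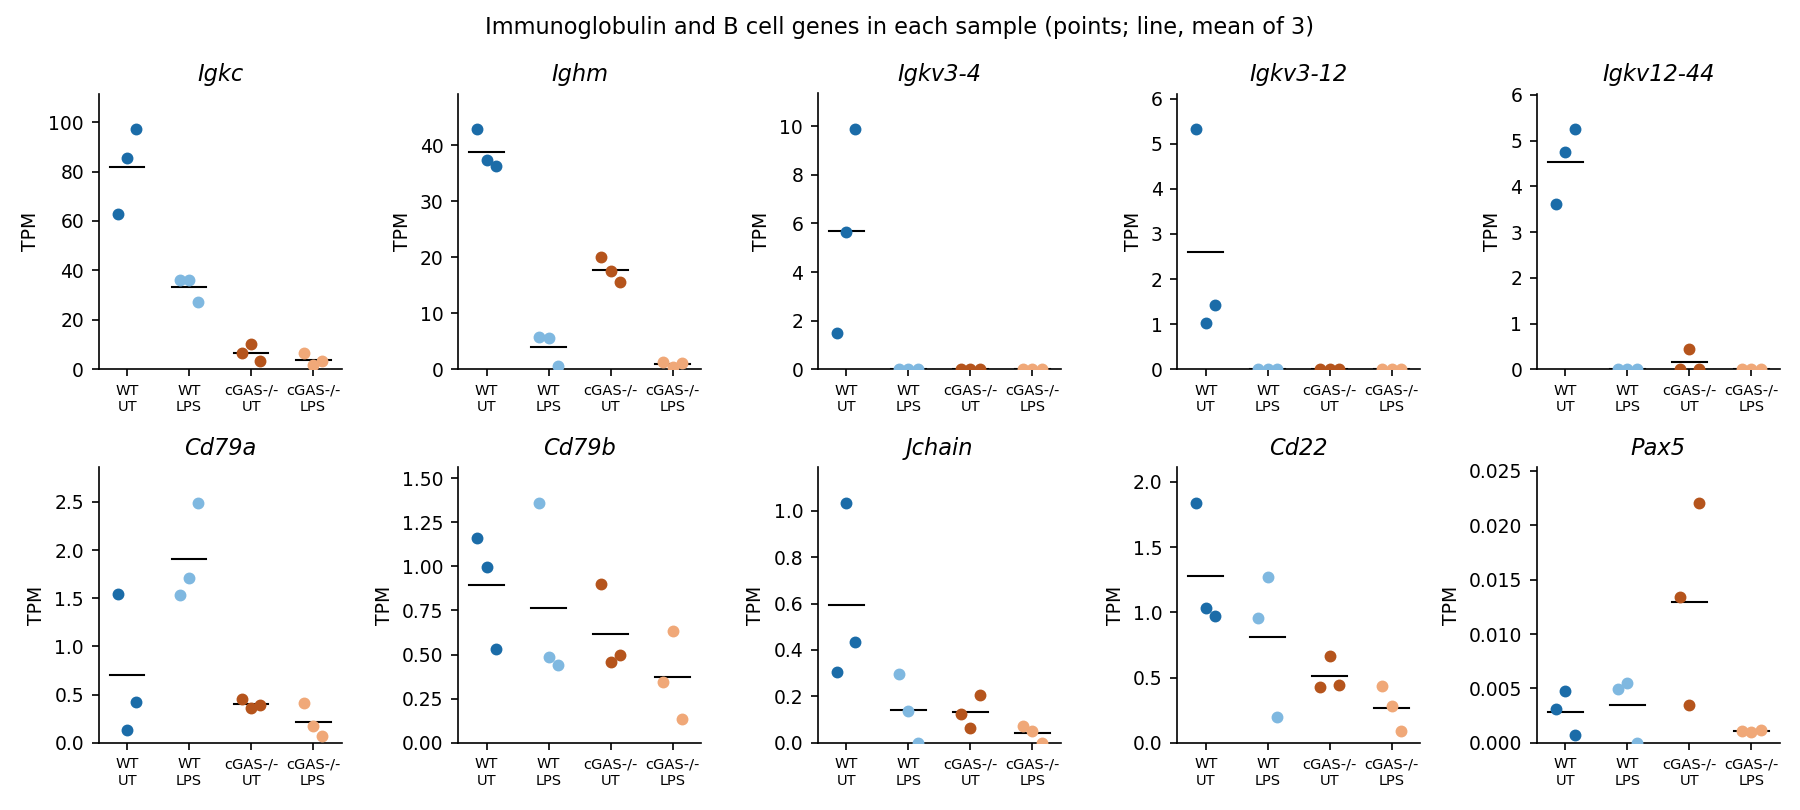
TPM of the 10 genes by group, with 1 point for each sample and a line at the mean of 3, each panel on its own linear scale that starts at 0. Igkc was higher in every WT sample than in any cGAS-/- sample, the 3 Igkv segments were near 0 outside UT WT, and Pax5 stayed at or under 0.0221 TPM.

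The V segments were detected almost only in UT WT samples. Igkv3-4 was at 1.51, 5.66 and 9.87 TPM in UT WT samples and was listed at 0 in the other 9. Igkv3-12 was at 5.32, 1.04 and 1.43 TPM in UT WT samples and likewise listed at 0 in the other 9. Igkv12-44 was at 3.61, 4.74 and 5.24 TPM in UT WT samples, at 0.450 TPM in UT cGAS-/- replicate 2 and listed at 0 elsewhere. UT WT replicate 1 had the lowest value of Igkv3-4 and the highest of Igkv3-12.

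The other V segments were also most numerous in UT WT samples, but were not limited to them. Counts above 0 depend on the read number, which is unknown. The share of all symbols above 0 in each sample was not determined. Of 160 Igkv symbols, 17, 21 and 23 were above 0 in the UT WT samples, 5, 9 and 1 in WT with LPS, 3, 2 and 3 in UT cGAS-/- and 5, 2 and 2 in cGAS-/- with LPS. Their summed level was between 35.4 and 52.8 TPM in UT WT and between 0.966 and 1.91 TPM in UT cGAS-/- samples. With LPS it was 15.3, 15.3 and 1.66 TPM in WT and between 0.936 and 4.99 TPM in cGAS-/- samples. WT LPS replicate 3 had fewer Igkv symbols than any cGAS-/- sample and a level within their range, while the other WT LPS samples lay above that range in level.

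The heavy chain cluster showed the same order without LPS. Of 183 Ighv symbols, 15, 20 and 16 were above 0 in UT WT samples, against 3, 5 and 2 in UT cGAS-/- samples. With LPS, 4, 10 and 0 were above 0 in WT and 2, 2 and 1 in cGAS-/- samples. Their summed level was between 18.2 and 33.9 TPM in UT WT, between 1.59 and 4.66 TPM in UT cGAS-/-, and 12.3, 16.3 and 0 TPM in WT with LPS. It was between 1.17 and 4.23 TPM in cGAS-/- with LPS, so only WT LPS replicate 3 was below the cGAS-/- LPS samples.

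**Figure D2:**
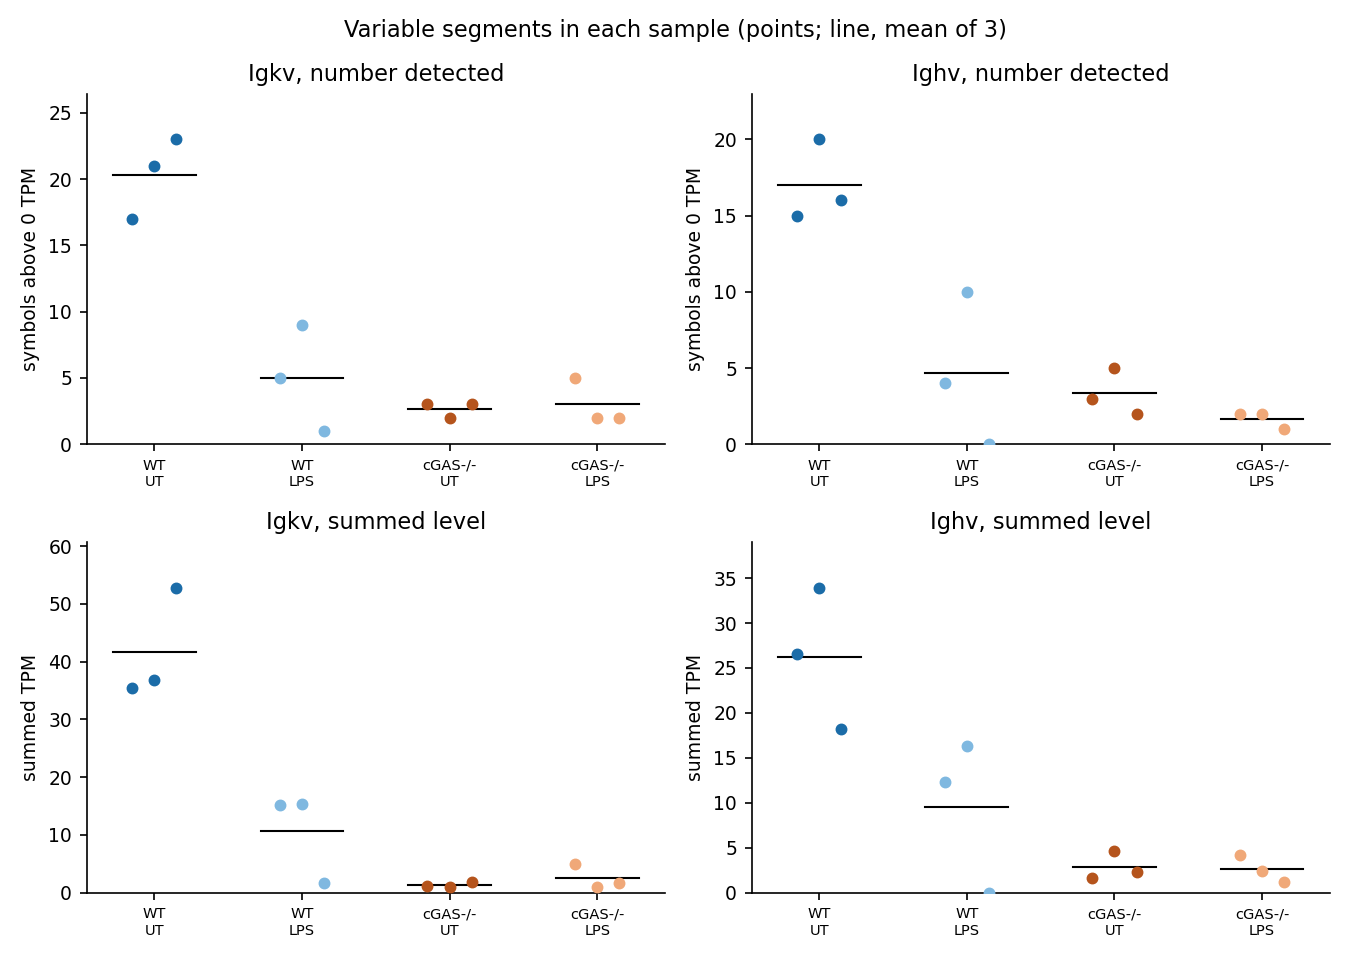
Number of Igkv and Ighv symbols above 0 TPM (top) and their summed TPM (bottom) in each sample, with a line at the mean of 3. The UT WT samples had 17 to 23 Igkv and 15 to 20 Ighv symbols, more than any other sample. Such counts depend on the read number, which is unknown.

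In UT WT samples many segments contributed, whereas a single one could make up the level elsewhere: Igkv15-103 was the only Igkv symbol above 0 in WT LPS replicate 3, at 1.66 TPM, and Ighv1-26 the only Ighv symbol above 0 in cGAS-/- LPS replicate 3, at 1.17 TPM. Of the 343 V symbols, 90 were above 0 in at least 1 sample, 45 of them in exactly 1 sample and 26 in exactly 2. Over all 38739 symbols, 23590 were above 0 in at least 1 sample. Counted by group, 45 V symbols were above 0 in UT WT samples only, against 8 only in WT with LPS, 6 only in UT cGAS-/- and 1 only in cGAS-/- with LPS. Counts by group over all symbols were not determined. More reads in UT WT samples and more V segments thus cannot be told apart in these counts. A total of 10 V symbols were above 0 in all 3 UT WT samples, and 2 of these, Igkv3-4 and Igkv3-12, were at 0 in the other 9 samples. By annotation, 213 of the V symbols are functional genes and 130 are pseudogenes, and the 90 that were detected were all among the former. The octamer was present for 80% of the V symbols above 0 and for 59.3% of those at 0, and for 77% of V genes and 44.6% of V pseudogenes. Since all 130 pseudogenes are among the symbols at 0, the 59.3% mixes V genes and pseudogenes and is not read as tied to detection.

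Some V segments had identical values. Igkv14-126 and Igkv4-91 were both at 4.87 TPM in WT LPS replicate 1, at 0.676 TPM in WT LPS replicate 2 and at 0.468 TPM in cGAS-/- LPS replicate 2. Among the D and J segments listed, only Ighj4 had a value, at 21.0 TPM in WT LPS replicate 3. These segments are short, so a listed 0 is not read as absence and the value of Ighj4 may rest on few reads. Over all immunoglobulin symbols of both clusters, the sum was 178, 203 and 212 TPM in UT WT, 72.4, 76.9 and 50.6 TPM in WT with LPS, 29.5, 33.4 and 23.4 TPM in UT cGAS-/- and 17.3, 5.64 and 7.19 TPM in cGAS-/- with LPS. Without Ighj4 the sum in WT LPS replicate 3 was 29.6 TPM. The groups of 1 treatment did not overlap in this sum, with or without Ighj4.

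Ighm differed from Igkc in pattern. It was at 42.8, 37.3 and 36.3 TPM in UT WT and at 20.0, 17.5 and 15.6 TPM in UT cGAS-/- samples, so the groups did not overlap and the ratio of the means was 2.19. With LPS it was at 5.69, 5.58 and 0.520 TPM in WT and at 1.26, 0.388 and 1.10 TPM in cGAS-/- samples. WT LPS replicate 3 fell within the cGAS-/- range, and the ratio of the means was 4.30, and 6.16 without that sample. Between UT and LPS samples, Ighm was 9.88-fold lower with LPS in WT and 19.4-fold lower in cGAS-/- samples, whereas Igkc was 2.47-fold and 1.71-fold lower. Without WT LPS replicate 3, the values in WT were 6.89-fold for Ighm and 2.26-fold for Igkc. The 1.71-fold value of Igkc would be larger without cGAS-/- LPS replicate 1, which was at 6.68 TPM.

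The ratio of Igkc to Ighm within a sample set the groups apart. It was 1.47, 2.28 and 2.67 in UT WT samples and 0.325, 0.578 and 0.213 in UT cGAS-/- samples. With LPS it was 6.34, 6.47 and 52.3 in WT and 5.32, 4.61 and 2.91 in cGAS-/- samples. UT cGAS-/- samples had the lowest ratios. The deposited values were taken as averages over the transcripts of a symbol, and the number averaged could not be found for Ighm, so the ratio compares samples and does not say which chain had more RNA.

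**Figure D3:**
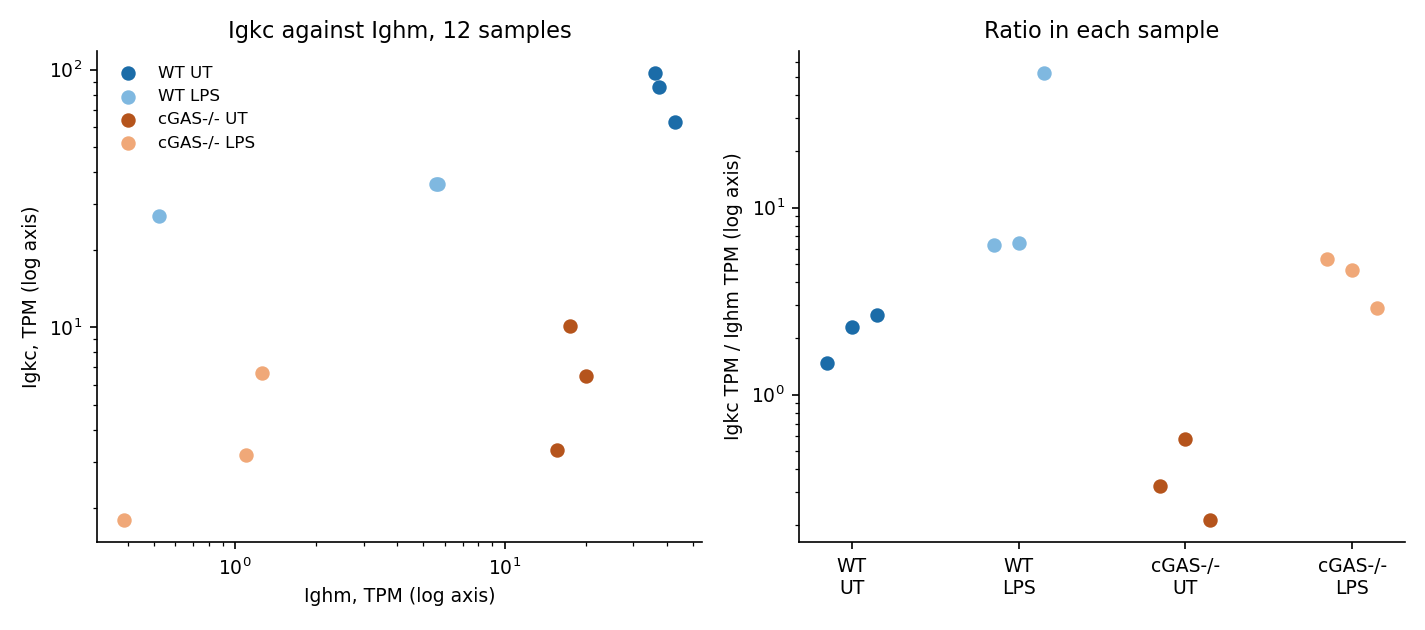
Igkc against Ighm in TPM on log axes (left) and their ratio on a log axis (right), with 1 point for each of 12 samples. UT cGAS-/- samples have the lowest ratios, at 0.213 to 0.578, and WT LPS replicate 3 lies at 52.3.

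Among the class-switched heavy chains, Ighg2b (a constant gene of IgG) had the highest mean. It was at 6.31, 7.97 and 3.68 TPM in UT WT samples, at 2.11, 2.02 and 0.238 TPM in WT with LPS and at most at 0.135 TPM in the 6 cGAS-/- samples. Ighg1 was above 0 in the 3 UT WT samples only, at 0.472 to 2.70 TPM. Ighg2c was at 0.466 to 1.04 TPM in UT WT samples and at 0.636, 1.33 and 0 TPM in WT with LPS, and was listed at 0 in all 6 cGAS-/- samples. The sum of the IgG, IgA and IgE constant genes was between 7.73 and 9.99 TPM in UT WT and at most 0.135 TPM in UT cGAS-/- samples. It was between 0.238 and 3.59 TPM in WT with LPS and at most 0.0814 TPM in cGAS-/- with LPS. For these genes, WT and cGAS-/- samples of the same treatment did not overlap in the sum.

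The partners of the surface antibody were near 1 TPM. Cd79a was at 1.55, 0.132 and 0.421 TPM in UT WT and at 0.451, 0.361 and 0.392 TPM in UT cGAS-/- samples, which overlapped. With LPS it was at 1.54, 1.71 and 2.49 TPM in WT and at 0.408, 0.178 and 0.0705 TPM in cGAS-/- samples, which did not. Cd79b was at 1.16, 0.998 and 0.532 TPM in UT WT, at 1.36, 0.485 and 0.441 TPM in WT with LPS, at 0.900, 0.456 and 0.495 TPM in UT cGAS-/- and at 0.344, 0.635 and 0.134 TPM in cGAS-/- with LPS. Its groups overlapped in both treatments.

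Cd22 was at 1.84, 1.03 and 0.972 TPM in UT WT and at 0.429, 0.668 and 0.443 TPM in UT cGAS-/- samples, which did not overlap. With LPS it was at 0.956, 1.27 and 0.195 TPM in WT and at 0.434, 0.279 and 0.0926 TPM in cGAS-/- samples, which overlapped through WT LPS replicate 3. Jchain was at 0.305, 1.03 and 0.436 TPM in UT WT samples and at most at 0.295 TPM elsewhere. Pax5 was at most at 0.0221 TPM, in a UT cGAS-/- sample, and was listed at 0 in WT LPS replicate 3. Jchain and Pax5 were too low to be tested.

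Among the 8 tested members, 6 had every UT cGAS-/- sample below every UT WT sample, which were Igkc, Ighm, the 3 Igkv segments and Cd22. Over the 11887 genes tested, 18.4% did so. These members were selected on this contrast, so nothing is read from the count, and the Igkv segments passed the filter on low values only through the UT WT samples. The difference of cGAS-/- from WT on the log2(TPM + 1) scale in UT samples was -3.52 for Igkc (standard error 0.416), -1.09 for Ighm (0.483), -2.50 for Igkv3-4 (0.393), -1.65 for Igkv3-12 (0.327), -2.28 for Igkv12-44 (0.180), -0.58 for Cd22 (0.246), -0.23 for Cd79b (0.237) and -0.19 for Cd79a (0.267). This scale understates the change of genes with low values. With a pseudocount of 0.1 in place of 1, the differences were -5.50 for Igkv3-4, -4.40 for Igkv3-12 and -4.70 for Igkv12-44, and with 5 they were -1.02, -0.56 and -0.89. The value of Cd79a rests on UT WT replicate 1, without which it was 0.14.

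The genotypes were compared with LPS by limma on the log2(TPM + 1) scale, with every sample in the fit. Igkc was lower in cGAS-/-, with a difference of -2.92 (standard error 0.416, limma adjusted p = 0.00508, lower in 3 of 3 samples), and -3.05 without WT LPS replicate 3 (limma adjusted p = 0.00301). It was past the threshold under 21 of 23 alternative settings. With the spread taken from the 6 LPS samples alone, the limma adjusted p was 0.136, and with weights per sample it was 0.152. Cd79a was also lower, with a difference of -1.25 (standard error 0.267, limma adjusted p = 0.0379, lower in 3 of 3 samples), and -1.11 without WT LPS replicate 3 (limma adjusted p = 0.0450). It was past the threshold under 9 of 22 alternative settings, and its adjusted p ranged from 0.0105 to 0.366 over them. Its size depended on the pseudocount, at -2.77 with 0.1 and -0.40 with 5. Cd79a passed the filter on low values only through WT samples, 3 with LPS and 1 UT, and thus mainly through the group in which it was high. With no filter its limma adjusted p was 0.0983.

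Ighm differed by -1.12 (standard error 0.483, limma adjusted p = 0.247), which did not pass the threshold. Without WT LPS replicate 3 it differed by -1.82 (standard error 0.202, limma adjusted p = 5.81e-04), which did. Cd22 differed by -0.47 (standard error 0.246, limma adjusted p = 0.318), by -0.74 without that sample (limma adjusted p = 0.0485) and by -0.28 without WT LPS replicate 2 (limma adjusted p = 0.428). Cd22 passed the filter on low values through 3 UT WT, 2 WT LPS and 1 UT cGAS-/- samples. It would thus not have been tested without the WT samples, in which it was high. Cd79b differed by -0.34 (standard error 0.237, limma adjusted p = 0.434) and by -0.47 without WT LPS replicate 3 (limma adjusted p = 0.311). It differed by -0.11 without WT LPS replicate 1 (limma adjusted p = 0.757), and without cGAS-/- LPS replicate 3 by -0.21 (limma adjusted p = 0.724). These sizes depended on the pseudocount. With 0.1 and 5, Ighm differed by -1.56 and -0.53, Cd22 by -1.15 and -0.14 and Cd79b by -0.87 and -0.10. The 3 Igkv segments were listed at 0 in all 6 samples with LPS, so no fold is given.

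**Figure D4:**
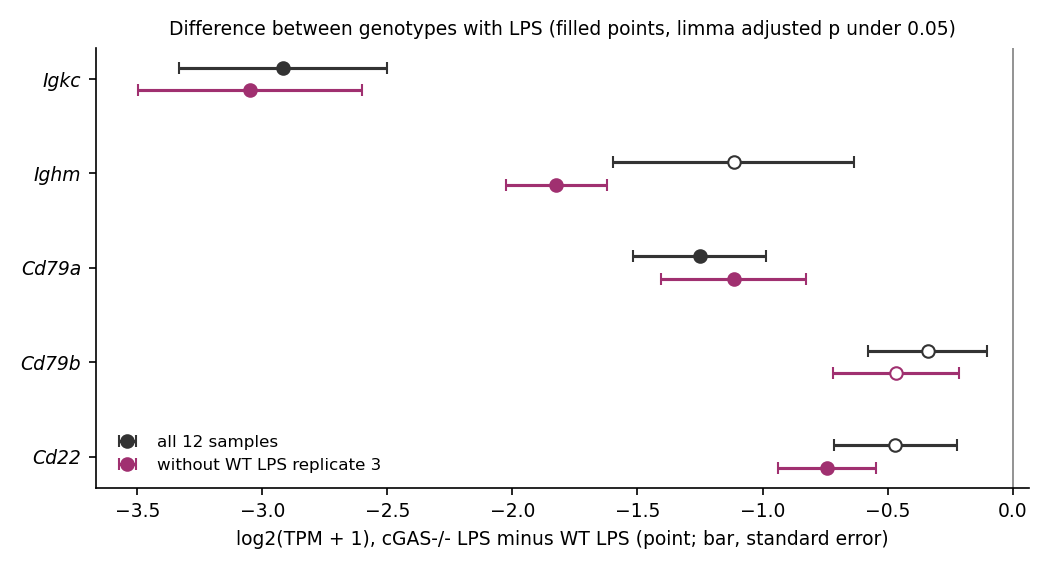
Difference in log2(TPM + 1) between cGAS-/- and WT samples with LPS for 5 genes, as a point with its standard error, from all 12 samples (black) and without WT LPS replicate 3 (purple). Filled points passed the limma adjusted p of 0.05: Igkc and Cd79a in both fits, Ighm and Cd22 without that sample.

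Of the 8 tested members, only the 5 other than Igkv had any value with LPS and could be called. In count, 2 of these 5 were called lower and 0 higher, against 1.00% and 1.36% of all tested genes. One of the 2 was Cd79a, which would not have been tested without the WT LPS samples, so the count is a description. With no filter or with a minimum of 5, only Igkc was called. Without WT LPS replicate 3, 4 of the 5 were called lower and 0 higher, against 4.44% and 3.84%. Cd79a and Cd22, 2 of these 4, would not have been tested without the WT samples, so this count is also a description. Only Igkc was also past a log2 fold change of 2, the size limit in the methods. For 2 members, Igkc and Cd79a, every cGAS-/- sample with LPS was below every WT sample, against 5.17% of all genes. The median difference was -0.40 over the 8 tested members, -1.12 over these 5 and 0.20 over all tested genes, which were not restricted to genes with a value with LPS. The medians were -0.60, -1.11 and 0.04, in that order, without WT LPS replicate 3. Whether the difference between genotypes was of another size with LPS than without it was not tested.

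Beyond the members, the B lineage lists held 407 symbols, of which 30 were tested. With LPS, 0 were called by limma, and 7 had an unadjusted p under 0.05, against 18.8% of all tested genes. The median difference was -0.02, and 0.20 over all tested genes. Without WT LPS replicate 3, 3 were called lower and 1 higher, against 4.44% and 3.84% of all tested genes. The lower ones were Ighg2b (-1.58, limma adjusted p = 0.00307), Ighg2c (-0.97, limma adjusted p = 0.0136) and the V segment Ighv1-26 (-2.22, limma adjusted p = 0.00198). The higher one was Stap1, a signaling adaptor (1.11, limma adjusted p = 0.0103). Ighg2b and Ighg2c passed the filter only through WT samples, in which they were high. Ighv1-26 passed it through 3 UT WT, 2 WT LPS and 1 cGAS-/- LPS samples, so it too would not have been tested without the WT samples. The median was then -0.15, and 0.04 over all tested genes. With all samples, these 4 differed by -1.14, -0.64, -1.35 and 1.63, in that order. Without WT LPS replicate 2, 7 B lineage list genes were called, of which 2 were members. The share of all tested genes called in that fit was not determined.

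Among V segments with at least 1 TPM in 3 or more samples, Ighv1-26 was higher with LPS than without it in 2 of 3 WT samples. It was at 2.40, 1.63 and 1.86 TPM in UT WT, at 5.09, 4.95 and 0 TPM in WT with LPS, and in the cGAS-/- samples at 1.17 TPM in 1 LPS sample and at 0 in the rest. Ighv1-15 had the same values as Ighv1-26 in UT WT replicates 1 and 2 and was listed at 0 elsewhere. Whether shared reads were split between these segments was not tested, so the size of the rise is uncertain. Igkv14-126 was at 1.53, 2.60 and 4.0 TPM in UT WT, at 4.87, 0.676 and 0 TPM in WT with LPS and at 1.62, 0.468 and 1.12 TPM in cGAS-/- with LPS, with 0.470 TPM in 1 UT cGAS-/- sample. Ighv1-58 was the exception in direction, at 3.94 and 1.96 TPM in 2 cGAS-/- LPS samples and at 1.09 TPM in 1 UT WT sample. Ighv3-6 and Ighv6-3 were at 1.16 to 3.51 and 1.35 to 6.33 TPM in UT WT samples and under 1 TPM elsewhere. Igkv1-117, Igkv1-135, Igkv15-103 and Ighv6-6 were above 0 in 4, 4, 4 and 3 samples, with no more than 5.52 TPM.

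Further genes known to define B cells, where listed, had values near 0 in every group. The transcription factor Ebf1 was at most at 0.237 TPM and the coactivator Pou2af1 at 0.329 TPM. Rag1, which cuts the V segments for recombination, was listed at 0 in all 12 samples, and Vpreb3, from the list of precursor genes, was at most at 0.389 TPM. Cr2, the complement receptor of mature B cells, was at 1.00 TPM in UT WT replicate 2 and at most at 0.302 TPM elsewhere. Of 19 receptor and co-receptor symbols looked for, 14 were listed, as were 5 of 10 precursor and 7 of 10 plasma cell symbols. Ms4a1, Vpreb1, Vpreb2, Igll1 and Mzb1 were among those not listed, so nothing is known of them here. Of the 14 listed receptor and co-receptor genes, 6 were under 1 TPM in every sample, as were 8 of 10 lineage transcription factors and 3 of 5 precursor genes. Ighd, the constant gene of IgD, was at most at 0.504 TPM.

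Other genes on the same lists had higher listed values in every group. Cd72 was between 30.4 and 152 TPM, Cd37 between 12.6 and 38.0 TPM, Stap1 between 5.46 and 46.2 TPM, Slamf7 between 12.1 and 71.3 TPM, Xbp1 between 3.81 and 22.9 TPM and Sdc1 between 7.09 and 26.0 TPM, with the lowest value of Cd72, Cd37, Stap1, Xbp1 and Sdc1 in WT LPS replicate 3. Tnfrsf13b was at most at 5.97 TPM, Fcrl1 at 4.48 TPM, Foxo1 at 4.56 TPM, Prdm1 at 4.06 TPM, Cd24a at 3.43 TPM and Tcf3 at 2.19 TPM. In UT samples, 6 of these 12 genes (Fcrl1, Slamf7, Stap1, Cd72, Prdm1 and Foxo1) had every cGAS-/- sample above every WT sample, against 12.1% of all tested genes. The receptor Fcrl1 was at 3.62 to 4.48 TPM in UT cGAS-/- and at 1.51 to 2.10 TPM in UT WT samples, and Slamf7 at 21.5 to 26.8 and 12.1 to 14.9 TPM. Sdc1, the plasma cell marker syndecan, lay the other way, at 7.60 to 8.63 TPM in UT cGAS-/- and 13.4 to 15.5 TPM in UT WT samples, and 5 genes overlapped.

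**Figure D5:**
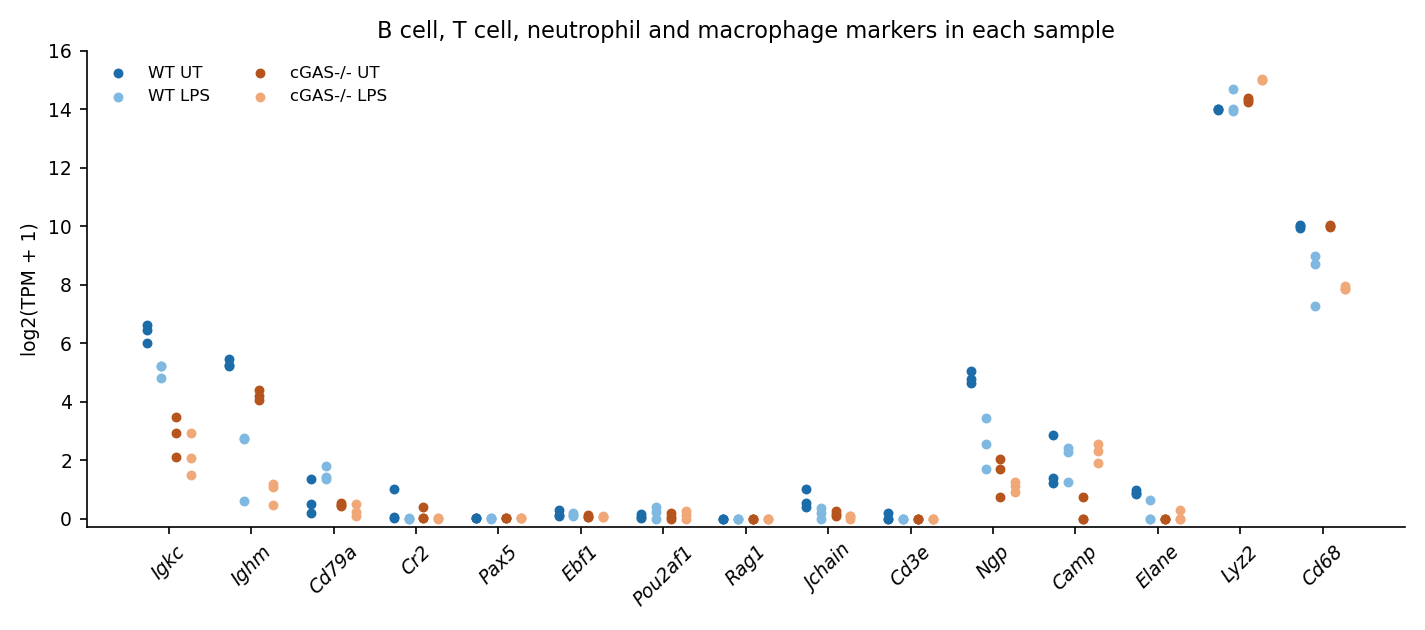
log2(TPM + 1) of 15 marker genes in each sample, picked after their values were seen. The defining B cell genes Pax5, Ebf1, Pou2af1 and Rag1 lie near 0 in all groups. Heights are to be compared between samples of a gene and not between genes, since the values were taken as averages over transcripts. The number averaged could not be found for Pax5, Ighm or Jchain.

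Among markers of neutrophils, some were highest in UT WT samples. Ngp, a granule protein of neutrophil precursors, was at 26.3, 32.3 and 24.1 TPM in UT WT, at 4.92, 2.21 and 9.90 TPM in WT with LPS, at 0.657, 2.22 and 3.13 TPM in UT cGAS-/- and at 1.17, 1.38 and 0.867 TPM in cGAS-/- with LPS. The granule proteases and enzymes Elane and Mpo were at 0.774 to 0.945 and 0.219 to 0.257 TPM in UT WT samples, while Elane was listed at 0 and Mpo was at most at 0.00930 TPM in UT cGAS-/- samples. Of 11 listed neutrophil genes, 8 were tested, and 6 of the 8 had every UT cGAS-/- sample below every UT WT sample, against 18.4% of all tested genes. Elane and Ltf, 2 of these 6, passed the filter on low values only with the UT WT samples, in which they were high, so their place in the count was fixed by the filter. Of the 6 genes that pass without the UT WT samples, 4 did not overlap. The summed level of the list was 165 to 236 TPM in UT WT, 67.9 to 143 TPM in UT cGAS-/-, 59.3 to 375 TPM in WT with LPS and 74.3 to 95.5 TPM in cGAS-/- with LPS. With LPS, 0 of the 8 were called by limma and 1 had an unadjusted p under 0.05, against 18.8% of all tested genes. Without WT LPS replicate 3, S100a9, a calcium-binding protein of neutrophils and other myeloid cells, was called lower (-2.08, limma adjusted p = 0.0411). Of all tested genes, 4.44% were called lower in that fit. In it, 3 of the 8 had an unadjusted p under 0.05, for which the share of all genes was not determined. Camp, another granule protein, was not lower with LPS in cGAS-/- (2.76, 4.0 and 4.92 TPM) than in WT samples (1.38, 3.84 and 4.38 TPM). Macrophage markers also differed between UT genotypes. Of 11 listed, 5 (Mrc1, Apoe, Mertk, Fcgr1 and Fcer1g) had every cGAS-/- sample below every WT sample and 3 (Lyz2, Msr1 and Tyrobp) had every one above, against 18.4% and 12.1% of all tested genes. The mannose receptor Mrc1 was at 73.4 to 85.2 TPM in UT WT and 23.5 to 25.6 TPM in UT cGAS-/- samples, and with LPS at 3.85 to 10.9 TPM in WT and 0.857 to 1.10 TPM in cGAS-/- samples. The part of neutrophil RNA, of macrophage state or of other bone marrow cells in the immunoglobulin values was not tested.

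The tested genes whose log2(TPM + 1) was most like that of Igkc over the 12 samples were Gm42031 (Pearson r = 0.942), Nxpe5 (0.934), Gm12896 (0.933), Gdf3 (0.933) and Padi4 (0.932). The 12 points share 4 group means and 1 library that stands apart, so this describes the samples and carries no p. None of the 5 is an immunoglobulin or B lineage list gene. Gm42031 was at 149 to 165 TPM in UT WT, 54.1 to 87.1 TPM in WT with LPS, 21.2 to 26.6 TPM in UT cGAS-/- and 27.2 to 31.9 TPM in cGAS-/- with LPS. By the same measure, Ngp was at 0.851, Cd22 at 0.765, Ighm at 0.560 and Cd79a at 0.462, each chosen after the values were seen.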

How the data were processed

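RNA of 12 macrophage samples was measured. The authors aligned the reads to GRCm39 by STAR and estimated transcript abundance by Kallisto on Galaxy, and the submitters' notes also name fastp. Versions, annotation and read numbers are not given in the sources used here. The deposited values were taken as TPM that the authors averaged over the transcripts of a symbol. The unit is an inference from their decimals.

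The members and lists were chosen with earlier results of these data known. Genes with at least 1 in 3 of 12 samples, after rescaling each sample to 1000000 for this filter, were tested (11887, including 8 members). Limma 3.58.1 in R 4.3.3 was fitted to log2(TPM + 1), with 4 group means and a variance trend, with a call at an adjusted p (Benjamini-Hochberg) under 0.05. It was tested on simulated data. Only cGAS-/- LPS against WT LPS was tested. Alternatives were other pseudocounts, filters and scalings, the LPS samples alone, sample weights, no trend, a replicate block and each sample left out.

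Named genes were the 10 members, the 3 other V or IgG symbols with the highest mean, every other B lineage list gene with at least 1 TPM in 3 samples, the 5 tested genes most correlated with Igkc, and Cgas. Other genes named were chosen after their values were seen. One listed gene is not reported here. Lists covered kappa and heavy chains, B cell receptor genes, B lineage transcription factors, B cell precursors, plasma cells, macrophages, neutrophils, erythroid cells, T and NK cells, plasmacytoid dendritic cells and mast cells. Sequences came from the GRCm39 genome with GENCODE M39 and were processed with Python 3.11.15.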

Additional observations from a re-analysis of the deposited data

How the results depend on the processing

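The count of called members with LPS was 2. It was 1 with a log2 fold change beyond 2 added, a pseudocount of 0.1, no filter on low values, a filter of at least 5, values rescaled to a common total or a replicate block, and 0 with the 6 LPS samples alone or sample weights. With any 1 sample left out it was 1 to 4: 4 without WT LPS replicate 3, 1 without WT UT replicate 3 or any one cGAS-/- sample, and 2 otherwise. Igkc was the call whenever there was 1. Over all B lineage list genes, members included, the count was 2. It was 4 with quantile normalization, 3 with a pseudocount of 5 or TMM factors, and 0 with the 6 LPS samples alone. With sample weights it was 1, a gene that is not a member. It was also 1 with a pseudocount of 0.1, no filter, the filter of at least 5, the common total or the replicate block. With any 1 sample left out it was 1 to 8, namely 7 when WT LPS replicate 2 was dropped and 8 when WT LPS replicate 3 was. Same-numbered samples did not deviate together (r of -0.03 to 0.04 over 18 pairs), so the numbers were not taken as pairing. Ighm and Cd22 passed only without WT LPS replicate 3. The median difference of all genes with LPS was 0.20, and 0.11 with TMM factors, 0.04 once WT LPS replicate 3 was dropped, 0.02 under quantile normalization, 0.06 with a pseudocount of 5 and 0.000539 with no filter. It was 0.44 with a pseudocount of 0.1, 0.35 with the filter of at least 5 and 0.36 once WT LPS replicate 2 was dropped. In UT samples, pseudocounts of 0.1 and 5 moved Cd22 from -0.58 to -1.14 and -0.19. The Cd79a difference in UT samples, -0.19, lay between -0.44 and 0.14 with any 1 UT sample left out, and was 0.14 without WT UT replicate 1. The mean summed immunoglobulin level of UT WT was 198 TPM, and 218 TPM rescaled to a common total. The cause of these changes was not tested.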

Other observations

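Markers of T and NK cells were low. The 14 listed genes summed to 1.36 to 1.52 TPM in UT WT and 0.771 to 1.09 TPM in UT cGAS-/-, and to 1.31 to 1.82 TPM in WT with LPS and 0.652 to 1.02 TPM in cGAS-/- with LPS. The genotypes did not overlap in this sum in either treatment, but that rested on Trbc1 and Trbc2, which were at 0 in most samples. Trbc2 alone was at 1.57 of the 1.82 TPM in WT LPS replicate 1. Without both genes the sums overlapped, at 1.09 to 1.52 TPM in UT WT, 0.771 to 1.09 TPM in UT cGAS-/-, 0.253 to 0.871 TPM in WT with LPS and 0.652 to 1.02 TPM in cGAS-/- with LPS. Cd3d was at 0, 0 and 0.212 TPM in WT with LPS and at 0.387, 0.317 and 0.226 TPM in cGAS-/- with LPS. Of the 14 genes, 13 were under 1 TPM in every sample and 0 were tested. The part of such cells in the immunoglobulin values was not tested. The 5 listed mast cell and basophil genes summed to 0.263 to 1.68 TPM. The 9 listed erythroid genes summed to 4.83 to 8.83 TPM in UT WT, 5.05 to 17.9 TPM in UT cGAS-/-, 1.56 to 37.5 TPM in WT with LPS and 2.76 to 14.7 TPM in cGAS-/- with LPS. The 7 listed plasmacytoid dendritic cell genes summed to 128 to 146 TPM in UT WT, 91.9 to 99.8 TPM in UT cGAS-/-, 715 to 2875 TPM in WT with LPS and 760 to 814 TPM in cGAS-/- with LPS. Bst2, an interferon-induced gene that many cell types express, made up 79.4% to 99.3% of this sum, while Siglech, Ccr9, Klk1 and Cd300c were at most at 0.252 TPM. With LPS, limma called 0 of the 4 erythroid, 0 of the 3 plasmacytoid dendritic cell and 0 of the 1 mast cell genes tested, and of these only 1 plasmacytoid dendritic cell gene had an unadjusted p under 0.05. Without WT LPS replicate 3, the plasmacytoid dendritic cell list genes Bst2 (-1.32, limma adjusted p = 0.0118) and Irf8 (-0.46, limma adjusted p = 0.0238) were called lower, and 0 erythroid and 0 mast cell genes were called. Of 11 macrophage genes, Mrc1 was called lower (-1.99, limma adjusted p = 0.00582) and Lyz2 higher (0.80, limma adjusted p = 0.0366). Without that sample, Mrc1 differed by -1.68 (limma adjusted p = 5.62e-04) and Lyz2 by 1.04 (limma adjusted p = 1.15e-05), and Cd68, Fcgr1, Msr1 and Apoe were also called lower, by -0.46 to -1.37. That made 5 of 11 called lower and 1 higher, against 4.44% and 3.84% of all tested genes, beside 4 of the 5 members with a value with LPS that were called lower in the same fit. Of these members, Cd79a and Cd22 would not have been tested without the WT samples, in which they were high.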
